A study of Mus musculus with 2 samples.

Results

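Secreted matrix and clotting genes were followed across myeloid-derived suppressor cells (MDSC) generated from mouse bone marrow. The 7 genes were taken as a fixed list of symbols: Spp1, Fn1, Tgfbi, Vcan, Thbs1, F13a1 and F10. They are 7 of the 32285 genes in the count files, and all 7 were among the 14592 genes with at least 50 summed UMIs. A UMI (unique molecular identifier) marks 1 captured RNA molecule. Marrow came from female C57BL/6 mice aged 10 weeks and grew for 4 days in 50 ng/mL of GM-CSF together with 50 ng/mL of IL-6. Dabrafenib (DAB), an inhibitor of mutant BRAF, was present at 1.5 µM in 1 culture, and a matching volume of its solvent DMSO in the other. Both cultures therefore carried the same cytokines and differed in the drug. Each condition is 1 scRNA-seq library of the 10x Genomics 5′ v2 chemistry, and how many mice contributed to it is not given in the sources used.

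Monocytes and macrophages are known to secrete proteins that build, coat or cross-link the extracellular matrix, and some of these also act in clotting. Osteopontin (Spp1) and fibronectin (Fn1) are matrix proteins that cells bind through integrins, and Tgfbi is a secreted, integrin-binding matrix protein first described as induced by TGF-beta. Versican (Vcan) is a large matrix proteoglycan, and thrombospondin 1 (Thbs1) is a matricellular protein that binds CD36 and CD47 and can activate latent TGF-beta. The A subunit of factor XIII (F13a1) is the transglutaminase that cross-links fibrin and is abundant in monocytes, macrophages and platelets. Factor X (F10) is the serine protease that, once active, turns prothrombin into thrombin. Most plasma factor X is made by the liver.

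All coordinates are GRCm38 from the GENCODE M21 annotation. Spp1 (ENSMUSG00000029304) lies at chr5:104435118-104441050 on the plus strand, Fn1 (ENSMUSG00000026193) at chr1:71585520-71653200 on the minus strand, and Thbs1 (ENSMUSG00000040152) at chr2:118111876-118127133 on the plus strand. Tgfbi (ENSMUSG00000035493) is at chr13:56609523-56639562 on the plus strand, and F10 (ENSMUSG00000031444) at chr8:13037308-13056676 on the plus strand. F13a1 (ENSMUSG00000039109) at chr13:36867178-37050244 and Vcan (ENSMUSG00000021614) at chr13:89655312-89742509 are both on the minus strand. No other gene overlaps Tgfbi or F10. For Fn1, F13a1, Thbs1 and Vcan the overlapping genes are on the opposite strand, and Spp1 shares its strand with the predicted gene Gm42793.

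Promoters are shown for F13a1 and Tgfbi, which were both lower in the DAB library, and for Spp1, which was higher. Each is read 5′ to 3′ on the strand of its gene, from RefSeq on GRCm38.p6. The stretches of F13a1 and Spp1 end just before the RefSeq start and that of Tgfbi 63 bases before it, where the GENCODE gene begins. The stretches are chr13:37050245-37050494 (250 bases, minus strand) for F13a1, chr13:56609336-56609522 (187 bases, plus strand) for Tgfbi and chr5:104434861-104435110 (250 bases, plus strand) for Spp1.

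F13a1: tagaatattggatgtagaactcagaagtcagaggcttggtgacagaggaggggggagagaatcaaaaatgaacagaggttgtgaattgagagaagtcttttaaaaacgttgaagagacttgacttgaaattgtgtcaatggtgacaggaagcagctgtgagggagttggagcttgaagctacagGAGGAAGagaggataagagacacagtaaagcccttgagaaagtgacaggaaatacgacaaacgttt
Tgfbi: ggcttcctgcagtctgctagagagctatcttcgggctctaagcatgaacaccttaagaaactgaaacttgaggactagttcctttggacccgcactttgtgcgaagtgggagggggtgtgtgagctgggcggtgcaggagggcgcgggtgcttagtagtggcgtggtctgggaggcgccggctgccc
Spp1: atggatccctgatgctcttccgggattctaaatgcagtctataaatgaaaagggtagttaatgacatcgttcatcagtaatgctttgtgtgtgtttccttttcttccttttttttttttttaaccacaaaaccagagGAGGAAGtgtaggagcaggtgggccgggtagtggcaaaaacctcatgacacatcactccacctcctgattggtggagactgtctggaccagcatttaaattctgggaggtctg

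Capitals mark the letters GAGGAAG, which resemble the site of PU.1, a factor of monocytes and granulocytes. They were searched on both strands over the 250 bases before each RefSeq start, including the 63 bases not shown for Tgfbi, together with TGANTCA (AP-1 type), TGATGNAA (ATF4 type) and TTGCNNAA (C/EBP type). GAGGAAG was found 1 time before F13a1, starting 66 bases before the gene, and 1 time before Spp1, starting 113 bases before it. Of 32851 promoter windows of this length, 10.6% held it. The windows of Tgfbi, Vcan and F10 held none of these letters, and the other 3 patterns were absent from the windows of all 5 genes with an entry. These patterns were held by 6.75% (AP-1 type), 3.45% (ATF4 type) and 9.56% (C/EBP type) of all windows. Fn1 and Thbs1 had no entry. These matches describe letters and say nothing of binding.

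After filters, 9032 DMSO cells with a median of 7473 UMIs and 10476 DAB cells with a median of 9312 UMIs were kept. Their UMIs were summed by library and cell class and scaled to CPM (counts per 1e6 UMIs), with exact Poisson 95% intervals. Log2 ratios are DAB over DMSO, with exact conditional binomial 95% intervals, and none of these intervals covers more than counting error. There are no replicates, so no test was made, and an effect of DAB cannot be told apart from a difference between 2 cultures. As a check of the labelled cell type, Itgam, the gene of CD11b, was detected in 81.6% of cells in DMSO and 84.1% in DAB. The libraries shared 152 barcodes, and leaving these cells out changed neither the count of genes past 2-fold over all cells nor that in immature monocyte-like cells. The cells formed 25 clusters, lettered A to Y by size, of which 16 took a class name from marker genes and 9 had none. The 7 genes and the pathway genes described further on were left out of the genes used for clustering, and none of the 7 is in a marker list. CPM is not set against gene length here, so levels are compared between cells and libraries and not between genes.

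In the DMSO library the 7 genes did not share 1 home among the cell classes, and not all of them were foremost in monocytes. Spp1 stood at 5539 CPM (5505 to 5573) in immature monocyte-like cells, which are led by Mmp12, Arg1 and Nos2. In chemokine-high granulocyte-like cells it stood at 5460 CPM (5367 to 5553), and these 2 intervals overlapped. The median cell, however, held 2950 CPM in the immature monocyte-like class and 94.3 CPM in the chemokine-high class. In the latter the top 10% of cells held 80.8% of the Spp1 UMIs. Macrophage-like cells followed at 5060 CPM, then basophil or mast cell-like cells at 2430 CPM from few of 52 cells, mature monocyte-like cells at 1546 CPM, granulocyte progenitor-like cells at 972 CPM, mature PMN-like cells at 662 CPM and intermediate granulocyte-like cells at 322 CPM. Activated dendritic cell-like cells held 118 CPM and B cell-like cells 116 CPM, with overlapping intervals. B cells are not known as a source of these proteins, and their values serve as a measure of free RNA and of doublets left in the data. Immature monocyte-like cells were 10.9% of the DMSO cells and held 45.9% of the Spp1 UMIs. They were also deeper, with a median of 17535 UMIs against 7473 over all DMSO cells, so a share of cells understates their share of all UMIs. The chemokine-high granulocyte-like class takes its name from a list of 5 chemokine genes alone. In DMSO its intermediate granulocyte markers summed to 7130 CPM and its mature PMN markers to 2901 CPM. Its immature monocyte markers summed to 1520 CPM.

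Fn1 and Tgfbi were both highest in macrophage-like cells, the cluster led by Pf4, Ppbp and the C1q genes. In DMSO the immature monocyte markers summed to 5830 CPM in immature monocyte-like cells and to 5379 CPM in this macrophage-like cluster. Fn1 stood there at 971 CPM (925 to 1019) and in immature monocyte-like cells at 571 CPM (560 to 582). Chemokine-high granulocyte-like and mature monocyte-like cells came next at 102 and 101 CPM, with overlapping intervals, and the other granulocyte classes were between 9.23 and 68.0 CPM. The DMSO B cell-like value of Fn1 was 72.0 CPM, from 59 UMIs, all of them in the top 10% of these cells. Intermediate granulocyte-like cells were lower, at 9.23 CPM, so 72.0 CPM is not a floor shared by all cells. As a precaution, DMSO values of Fn1 at or below 72.0 CPM are not read as expression, and whether they are was not tested. Tgfbi stood at 479 CPM (447 to 513) in macrophage-like, 323 CPM (315 to 331) in immature monocyte-like, 137 CPM in mature PMN-like and 105 CPM in mature monocyte-like cells. Its B cell-like level was 23.2 CPM.

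F13a1 was divided between a monocyte and a progenitor class. It stood at 361 CPM (347 to 376) in granulocyte progenitor-like cells, led by Elane, Prtn3, Ctsg and Mpo, and at 281 CPM (273 to 289) in immature monocyte-like cells. The progenitor class held markers of both lineages in DMSO. Its immature monocyte markers summed to 2094 CPM, most of it Mgl2 at 1400 CPM. They summed to 86.1 CPM in intermediate granulocyte-like, 455 CPM in mature PMN-like and 1520 CPM in chemokine-high granulocyte-like cells. The intermediate granulocyte markers summed to 4378 CPM in the progenitor class. In immature monocyte-like cells they summed to 2179 CPM, and in intermediate granulocyte-like cells to 56894 CPM. Macrophage-like cells held 101 CPM, while mature monocyte-like cells, at 21 CPM, and mature PMN-like cells, at 19.6 CPM, had overlapping intervals. The mature monocyte-like and mature PMN-like classes were thus low for F13a1. Activated dendritic cell-like cells held no UMI, which allows up to 1.38 CPM. The unnamed cluster P exceeded all classes at 747 CPM, and its cells had the highest median mitochondrial share of any cluster, 3.84% in DMSO and 5.01% in DAB.

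Among the named classes Thbs1 and F10 were highest in classes with a granulocyte name. Thbs1 stood at 1535 CPM (1509 to 1561) in mature PMN-like and 1505 CPM (1482 to 1528) in intermediate granulocyte-like cells, and these intervals overlapped. Immature monocyte-like cells held 901 CPM of Thbs1, mature monocyte-like cells 303 CPM and B cell-like cells 116 CPM. The unnamed cluster P exceeded them at 3580 CPM. F10 stood at 1085 CPM (1044 to 1127) in chemokine-high granulocyte-like, 750 CPM (731 to 768) in mature PMN-like and 547 CPM (536 to 557) in immature monocyte-like cells, against 18.3 CPM in B cell-like cells. Vcan was sparse throughout, with 2004 DMSO and 3714 DAB UMIs in all. Among the named classes it was highest in immature monocyte-like cells at 34.2 CPM (31.6 to 37.0) and stood at 24.7 CPM in mature PMN-like cells.

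**Figure D1:**
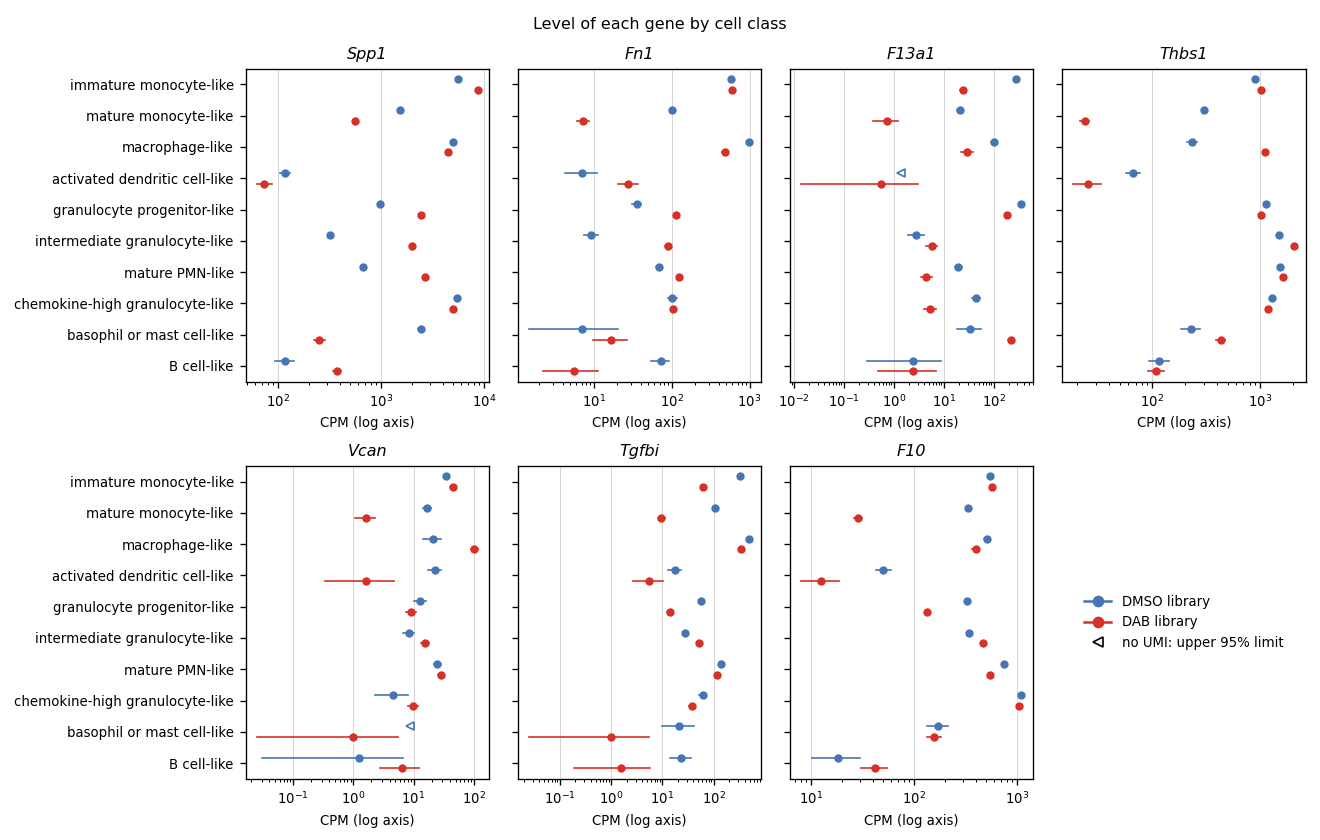
Level of each of the 7 genes in CPM (log axis, scaled separately for each gene) in 10 cell classes, for the DMSO library (blue) and the DAB library (red). Bars are exact Poisson 95% intervals and many are narrower than their point, and open triangles give the upper limit where no UMI was found. In mature monocyte-like cells all 7 red points lie to the left of the blue ones, while in intermediate granulocyte-like cells, which different clusters fill in each library, all 7 lie to the right.

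Over all cells, F13a1 and Tgfbi were lower in the DAB library and the other 5 genes differed by less than 2-fold. F13a1 stood at 125 CPM in DMSO and 34.6 CPM in DAB, 3.62-fold lower, a log2 ratio of -1.86 (-1.91 to -1.81). Tgfbi stood at 149 and 57.6 CPM, 2.6-fold lower, with a log2 ratio of -1.38 (-1.42 to -1.34). F10 was lower by less, at 496 and 372 CPM (-0.41). These 2 of 7 genes at least 2-fold lower stand beside 6.15% of the 14592 genes tested. When each cell weighed the same, in place of each UMI, Tgfbi came to -0.87 and only F13a1 stayed at least 2-fold lower. F10 then came to -0.10.

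Spp1 led the genes that were higher in DAB, at 2386 CPM in DMSO and 3145 CPM in DAB, a log2 ratio of 0.40 (0.39 to 0.41). Vcan stood at 21.9 and 26.7 CPM (0.29), Thbs1 at 1075 and 1213 CPM (0.17) and Fn1 at 217 and 243 CPM (0.17). None of the 7 was at least 2-fold higher, against 5.03% of all genes. The ratio of Spp1 came to 0.56 when both libraries were given the same mix of clusters. The immature monocyte-like class was 10.9% of DMSO and 4.32% of DAB cells. F13a1 and Tgfbi were then -1.84 and -1.31.

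In immature monocyte-like cells the same pair was lower by more, and Spp1 was higher. F13a1 stood at 281 CPM in DMSO and 24.6 CPM in DAB, 11.4-fold lower (log2 ratio -3.52, -3.73 to -3.31). Tgfbi stood at 323 and 61.5 CPM, 5.25-fold lower (-2.39, -2.53 to -2.26). Without alignment of the libraries, when only 45 DAB cells were in the class, these ratios were -2.39 for F13a1 and -1.04 for Tgfbi, and in 2 of 8 other clusterings no cluster took this class name. The count of 2 of 7 at least 2-fold lower stands beside 9.99% of 10637 genes in this class, and 0 of 7 were at least 2-fold higher, against 3.68%. Spp1 stood at 5539 and 8706 CPM, a log2 ratio of 0.65, the highest level of Spp1 in any cluster of the DAB library.

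Fn1 stood at 571 and 588 CPM in the same cells (0.04, -0.01 to 0.09), and F10 at 547 and 577 CPM (0.08). Thbs1 stood at 901 and 1029 CPM (0.19) and Vcan at 34.2 and 44.4 CPM (0.38). The class was 1 cluster of 985 DMSO and 453 DAB cells with like depth, at a median of 17535 and 17492 UMIs. Its 7 class markers summed to 5830 CPM in DMSO and 5159 CPM in DAB, with 1 of 7 higher in DAB. That 1 was Mmp12, most of the sum, at 3254 and 3691 CPM. Of the lower ones, Ccr2 stood at 189 and 18.4 CPM and Lpl at 1047 and 515 CPM. The 5 chemokine-high granulocyte markers summed to 6911 and 17045 CPM, with 5 of 5 higher in DAB, and their part in these ratios was not tested.

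Mature monocyte-like cells were where all 7 genes were lower in DAB. This cluster of 549 DMSO and 586 DAB cells was led by H2-Eb1, H2-Aa, H2-Ab1, Ccl17 and Ccl24, that is by MHC class II and chemokine genes that dendritic cells also express. Fn1 stood at 101 CPM in DMSO and 7.36 CPM in DAB, 13.7-fold lower (log2 ratio -3.78, -4.05 to -3.52). Thbs1 stood at 303 and 23.6 CPM, 12.8-fold lower (-3.68, -3.83 to -3.54). The DAB values of both were near or below those of B cell-like cells in that library, 5.57 CPM for Fn1 and 109 CPM for Thbs1.

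The clotting genes and the other matrix genes differed in the same direction in these cells. F10 stood at 337 CPM in DMSO and 28.5 CPM in DAB, 11.9-fold lower (-3.57). B cell-like cells of the DAB library held 41.4 CPM of F10, 2.39 CPM of F13a1 and 6.37 CPM of Vcan, so the DAB values of these genes here were not above background. F13a1 had 232 UMIs in DMSO and 13 in DAB (21 and 0.72 CPM, log2 ratio -4.87, -5.80 to -4.06). Tgfbi stood at 105 and 9.52 CPM (-3.47), Vcan at 16.6 and 1.61 CPM (-3.37) and Spp1, the least changed, at 1546 and 558 CPM (-1.47, -1.51 to -1.44). All 7 were at least 2-fold lower, beside 8.33% of 10764 genes in this class, and 0 were at least 2-fold higher, beside 4.81%.

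Other markers moved with this result. In the mature monocyte-like class the 7 immature monocyte markers summed to 4114 CPM in DMSO and 1517 CPM in DAB, with 1 of 7 higher in DAB. The 8 macrophage markers went from 679 to 177 CPM, with 0 of 8 higher, and the 5 chemokine-high granulocyte markers from 1867 to 459 CPM. The class's own 7 markers differed little, at 20296 and 19843 CPM, while the median depth was 19649 UMIs in DMSO and 30266.5 in DAB. The part of these in the result was not tested. All 7 genes stayed lower in DAB in each of 8 other clusterings, and between 4 and 7 of them stayed at least 2-fold lower, 4 of them at Leiden resolution 0.5.

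Among granulocyte and granulocyte progenitor classes, the summed level of Spp1 was higher in DAB in 3 of 4. In mature PMN-like cells Spp1 stood at 662 CPM in DMSO and 2667 CPM in DAB, 4.03-fold higher (log2 ratio 2.01, 1.97 to 2.05), and it was higher in each cluster of this class with at least 50 cells of both libraries, at 2.06 in A, 2.14 in B and 1.03 in Q. Its B cell-like level, the measure of free RNA and of doublets left, stood at 116 and 375 CPM (1.69). The top 10% of B cell-like cells held 92.6% and 93.2% of these UMIs, so the level was not spread evenly over cells. Fn1 stood at 68.0 and 125 CPM in mature PMN-like cells (0.87), from a DMSO value that overlapped that of B cell-like cells. F13a1, with 169 and 65 UMIs, stood at 19.6 and 4.50 CPM (-2.12). Thbs1 stood at 1535 and 1634 CPM (0.09), F10 at 750 and 552 CPM (-0.44), Tgfbi at 137 and 116 CPM (-0.25) and Vcan at 24.7 and 28.5 CPM (0.21). Of the 7 genes, 1 was at least 2-fold higher and 1 at least 2-fold lower, beside 3.58% and 2.57% of 10414 genes. The 5 chemokine-high granulocyte markers summed to 6989 CPM in DMSO and 10368 CPM in DAB in this class, with 4 of 5 higher, and their part was not tested.

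Intermediate granulocyte-like cells were named from 10 markers that include Camp, Ltf, Ngp and Ly6g. They had ratios above 0 for all 7 genes over the class, though not within each of its clusters. Spp1 stood at 322 CPM in DMSO and 1995 CPM in DAB, 6.20-fold higher (2.63, 2.58 to 2.68), and Fn1 at 9.23 and 88.5 CPM (3.26), where the DMSO value is below that of B cell-like cells. F13a1 had 31 and 57 UMIs (1.02, 0.36 to 1.70), at 2.83 and 5.74 CPM, with a DMSO value close to the 2.44 CPM of B cell-like cells. Of the 7, 3 were at least 2-fold higher, beside 8.33% of 9726 genes, and 0 were lower, beside 4.0%. The libraries filled this class with different clusters, since I held 823 DMSO and 186 DAB cells, G 618 and 474, and U 77 and 218. Only I was led by Camp, Ltf and Ngp, while G was led by Ly6g and S100a9 and U by Retnlg and Ly6g. Within these clusters Spp1 was still higher in DAB, by 3.55 in I, 1.50 in G and 1.77 in U. Other genes were not, with F13a1 at -1.71 (4 and 5 UMIs) and Vcan at -0.33 in U and Tgfbi at -0.06 in G. The 10 markers of the class summed to 56894 CPM in DMSO and 35899 CPM in DAB, and the 5 chemokine-high granulocyte markers to 8011 and 15894 CPM, with 5 of 5 higher, and their part was not tested. In I the DMSO level of Spp1 was 48.0 CPM, below that of B cell-like cells.

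Granulocyte progenitor-like cells had both directions. Spp1 stood at 972 CPM in DMSO and 2471 CPM in DAB (1.35) and Fn1 at 35.5 and 114 CPM (1.68), again with a DMSO value below that of B cell-like cells. Tgfbi stood at 57.3 and 14.1 CPM (-2.02), F10 at 329 and 135 CPM (-1.29) and F13a1 at 361 and 182 CPM (-0.99, -1.07 to -0.91). Of the 7 genes, 2 were at least 2-fold higher and 2 at least 2-fold lower, beside 5.65% and 5.36% of 10480 genes. In DAB this class was 4.43% of cells and held 51.7% of all F13a1 UMIs, against 20.2% in DMSO, so most F13a1 UMIs of the DAB library came from these cells. They were also deeper, with a median of 27918.5 UMIs against 9312 over all DAB cells. The immature monocyte markers in these cells summed to 2094 and 617 CPM, and their part was not tested.

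In chemokine-high granulocyte-like cells the summed level of Spp1 was high in both libraries, at 5460 and 4977 CPM (-0.13). The median cell held 94.3 CPM in DMSO and 1124 CPM in DAB, and the top 10% of cells held 80.8% and 65.6% of the Spp1 UMIs. The 2 clusters of the class differed, with 7918 and 5797 CPM in H (-0.45) and 3015 and 4518 CPM in L (0.58). F10 stood at 1085 and 1048 CPM (-0.05). F13a1 stood at 44.4 and 5.35 CPM (-3.05, -3.53 to -2.58) and Vcan, from 11 and 111 UMIs, at 4.52 and 9.89 CPM (1.13, 0.24 to 2.17). Here 1 of 7 was at least 2-fold lower and 1 at least 2-fold higher, beside 4.01% and 3.15% of 9396 genes. The class was 369 of the 9032 DMSO cells and 1464 of the 10476 DAB cells, and in DAB it held 22.7% of all F10 UMIs against 5.81% in DMSO. Macrophage-like cells, 173 and 143 in number, had Thbs1 at 234 and 1121 CPM (2.26, 2.11 to 2.42) and Vcan at 20.8 and 103 CPM (2.31, 1.79 to 2.86). Fn1 in them stood at 971 and 478 CPM (-1.02) and F13a1 at 101 and 29.6 CPM (-1.78). Their 8 macrophage markers summed to 1687 CPM in DMSO and 678 CPM in DAB, with 0 of 8 higher in DAB. The 7 immature monocyte markers summed to 5379 and 2356 CPM, with 2 of 7 higher. The 5 megakaryocyte or platelet markers summed to 4292 and 3082 CPM, with 2 of 5 higher. The 7 mature PMN markers summed to 919 and 1468 CPM, with 5 of 7 higher. The part of these markers in the ratios was not tested.

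**Figure D2:**
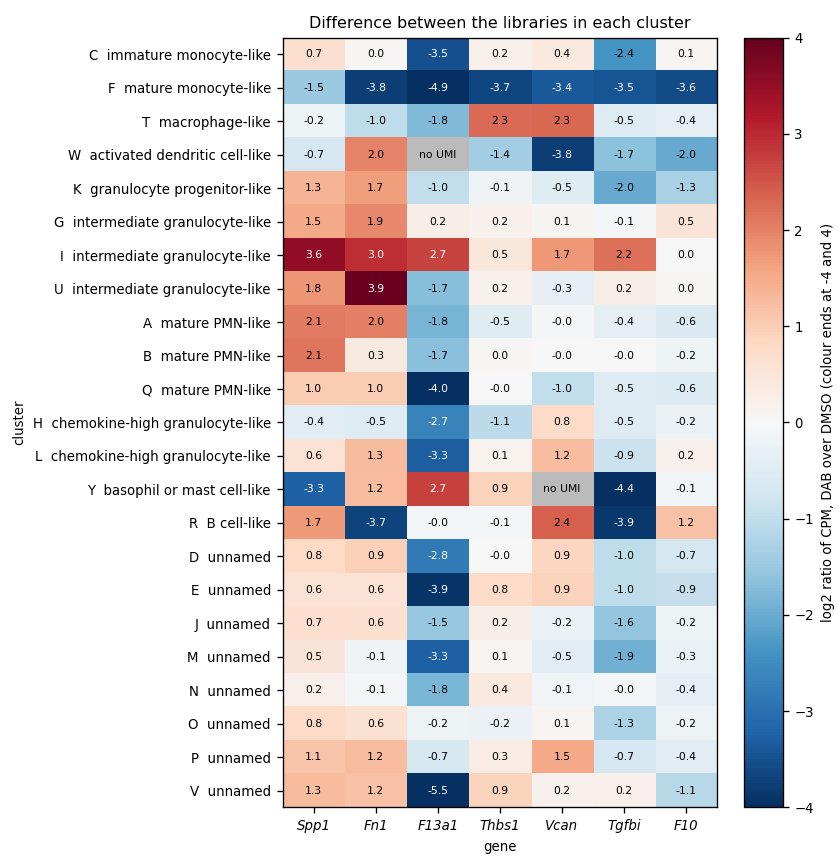
Log2 ratio of CPM, DAB over DMSO, for the 7 genes (columns) in the 23 clusters with at least 50 cells of both libraries (rows, with the class name where one was given). Blue is lower and red higher in DAB, the colour scale ends at -4 and 4, and grey marks a cluster where a library held no UMI. The F13a1 column is mostly blue, the Spp1 column mostly red, and the row of cluster F is blue throughout.

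Cluster by cluster, F13a1 was at least 2-fold lower in DAB in 15 of 23 clusters and at least 2-fold higher in 2. Of 14592 genes, 0.212% were at least 2-fold lower in 15 or more clusters, where a minimum of summed UMIs in a cluster applied. The counts of the 7 genes by cluster had no such minimum, and that of F13a1 includes cluster U, with 4 and 5 UMIs. F13a1 therefore cannot be set against this share. The 2 clusters where F13a1 was higher were I, with 1.56 CPM in DMSO and 10.3 CPM in DAB, and the basophil or mast cell-like cluster Y, with 33.2 CPM (14 UMIs) in DMSO and 219 CPM (223 UMIs) in DAB. Tgfbi was at least 2-fold lower in 11 clusters and higher in 1. Spp1 was at least 2-fold higher in 10 clusters and lower in 2, and Fn1 higher in 11 and lower in 3. Of the 14592 genes, 1.33% were higher in 10 or more clusters, with the same minimum in each cluster. Genes too sparse to meet it in 10 clusters stayed in the 14592, which lowers this share. Spp1 and Fn1 therefore cannot be set against it either. Of the 11 clusters with higher Fn1, only P and V had a DMSO level of Fn1 above the 72.0 CPM of B cell-like cells. In the others the DMSO value of Fn1 is not read as expression. In Y, Spp1 went the other way, at 2430 and 252 CPM, but 99.1% of its DMSO UMIs there came from the top 10% of its 52 cells.

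Thbs1 and F10 differed less between the libraries than the genes above. Thbs1 was within 2-fold in most clusters, with 3 lower and 1 higher, and F10 with 4 lower and 1 higher. The unnamed clusters made up 30.9% of the DMSO library's cells and 34.5% of those in DAB, where they held 66.2% of the Fn1 UMIs and 62.0% of the Vcan UMIs. Over these clusters together Fn1 stood at 192 CPM in DMSO and 391 CPM in DAB (1.03). This DMSO level is above the 72.0 CPM of B cell-like cells. By less than 2-fold, Fn1 was higher in D (0.94), J (0.64), O (0.60) and E (0.59). It was lower in M (-0.14) and N (-0.06). Cluster V, led by Retnla, Ly6g and Fn1 itself, had the highest Fn1 level of the DAB library at 1318 CPM, against 584 CPM in DMSO. In V F13a1 stood at 24.5 and 0.53 CPM.

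The share of cells with a UMI was compared after each cell was thinned at random to 1500 UMIs, which left 8596 DMSO and 10184 DAB cells. Spp1 was detected in 40.1% (39.1 to 41.2) of cells in DMSO and 63.1% (62.2 to 64.0) in DAB, or in 56.4% and 79.8% without thinning. The thinned shares were 6.80% and 9.64% in B cell-like cells, whose median depths were 3723 and 4704 UMIs (all cells: 7473 and 9312). The wider spread of Spp1 in DAB was seen in mature PMN-like cells, at 22.6% and 61.0%, and in intermediate granulocyte-like cells, at 17.2% and 55.4%. In immature monocyte-like cells most cells had Spp1 in both libraries, at 84.7% and 92.1%. Over all cells the top 10% by Spp1 UMIs held 75.9% of them in DMSO and 59.9% in DAB.

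F13a1 was found in 7.10% (6.56 to 7.66) of DMSO and 2.00% (1.74 to 2.29) of DAB cells, against 0.680% and 1.52% of B cell-like cells. Over all DAB cells its share was thus near that of B cell-like cells, which rests on 197 cells. Its level was not, at 34.6 CPM over all DAB cells and 2.39 CPM, from 3 UMIs, in B cell-like ones. Without thinning the shares over all cells were 14.7% and 5.27%. Among immature monocyte-like cells the thinned share went from 23.3% (20.7 to 26) to 3.31% (1.86 to 5.40), and among granulocyte progenitor-like cells from 29.5% to 14.0%. Tgfbi went from 34.1% to 8.17% of immature monocyte-like cells and from 15% to 1.54% of mature monocyte-like cells. Over all cells Tgfbi had a UMI in 14.6% and 9.24%, against 2.04% of DMSO B cell-like cells and none of 197 DAB ones, which allows up to 1.52%; without thinning it was 35.9% and 30.1%.

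Fn1 was detected in 11.2% of cells in DMSO and 13.5% in DAB (2.04% and 1.02% of B cell-like cells, and 23.0% and 27.0% over all cells without thinning). Thbs1 had a UMI in 55.2% and 55.3%, against 3.40% and 5.58% of B cell-like cells. F10 was found in 47.6% and 41.5% of cells, and Vcan in 2.63% and 2.82%. Without thinning these came to 73.4% in both libraries for Thbs1, 79.7% and 73.6% for F10, and 12% and 14.6% for Vcan. Cells with at least 4 of the 7 genes made up 28.7% of DMSO and 16.3% of DAB immature monocyte-like cells. Of mature monocyte-like cells, 29.7% in DMSO and 65.7% in DAB had none of the 7.

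**Figure D3:**
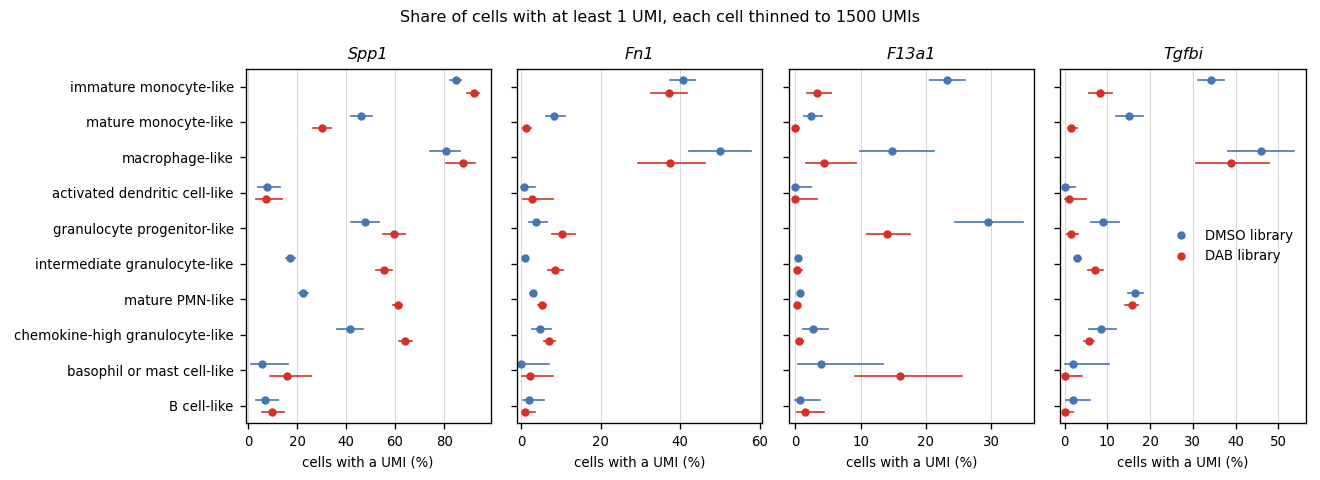
Share of cells (percent) with at least 1 UMI of Spp1, Fn1, F13a1 or Tgfbi in 10 classes, after thinning each cell to 1500 UMIs, with exact binomial 95% intervals, DMSO in blue and DAB in red. Spp1 goes from 22.6% to 61.0% of mature PMN-like cells, while F13a1 goes from 23.3% to 3.31% of immature monocyte-like cells. B cell-like cells give the background.

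Other genes of the same pathways were taken from 4 lists that do not hold the 7 genes. Among clotting and fibrinolysis genes, 31 had at least 50 UMIs, of which 6 were at least 2-fold lower and 5 at least 2-fold higher over all cells, with a median log2 ratio of 0.09. Over all 14592 genes, 6.15% were lower and 5.03% higher by this limit, and the median was -0.02. Factor VII (F7), the protease that starts clotting with tissue factor and acts upon factor X, stood at 104 CPM in DMSO and 43.7 CPM in DAB (-1.24). The protein C receptor Procr stood at 34.3 and 12.5 CPM (-1.46) and protein Z (Proz) at 1.43 and 0.62 CPM (-1.21). Serpinb2, an inhibitor of plasminogen activators, stood at 83.9 and 220 CPM (1.39), and the thrombin receptors F2r at 0.62 and 1.54 CPM (1.31) and F2rl2 at 26.2 and 60.4 CPM (1.21).

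Matrix genes were mostly low in these cells. Of 71 matrix and matricellular genes matched, 35 had at least 50 UMIs, 3 at least 2-fold lower and 6 at least 2-fold higher, with a median of 0.01. With at least 200 UMIs, 2 were higher. Laminin gamma 1 (Lamc1) stood at 16.3 and 6.54 CPM (-1.31), Efemp2 at 4.97 and 2.16 CPM (-1.20) and agrin (Agrn) at 4.80 and 2.20 CPM (-1.12). Collagen XVIII (Col18a1) had 15 UMIs in DMSO and 433 in DAB (0.16 and 3.12 CPM, 4.25). Laminin alpha 5 (Lama5) stood at 6.17 and 14.5 CPM (1.23) and the collagen prolyl hydroxylase subunit P4ha2 at 10.0 and 19.2 CPM (0.94).

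Matrix receptor genes differed in both directions. Of 29 matrix receptor genes, 4 were at least 2-fold lower and 4 at least 2-fold higher (median -0.14). Cd36, a receptor of thrombospondin 1, stood at 16.5 CPM in DMSO and 1.30 CPM in DAB (-3.67), syndecan 1 (Sdc1) at 10.8 and 0.98 CPM (-3.47) and the scavenging receptor Lrp1 at 72.6 and 25.9 CPM (-1.49). The integrin chains Itga2 at 0.44 and 3.35 CPM (2.94), Itga3 at 0.39 and 1.92 CPM (2.29) and Itgb7 at 23.4 and 65.5 CPM (1.5) were higher. Of 27 TGF-beta pathway genes, 4 were at least 2-fold lower and 2 at least 2-fold higher (median -0.17), and none were higher among those with at least 200 UMIs. The ligand Tgfb1 stood at 293 and 441 CPM (0.59), the inhibitor of DNA binding Id1 at 61.9 and 114 CPM (0.88) and Nrros, which tethers latent TGF-beta, at 116 and 167 CPM (0.53). The receptor Acvrl1 stood at 12.1 and 4.08 CPM (-1.56), the co-receptor Tgfbr3 at 10.4 and 3.85 CPM (-1.44) and the inhibitory Smad6 at 3.74 and 1.49 CPM (-1.33).

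**Figure D4:**
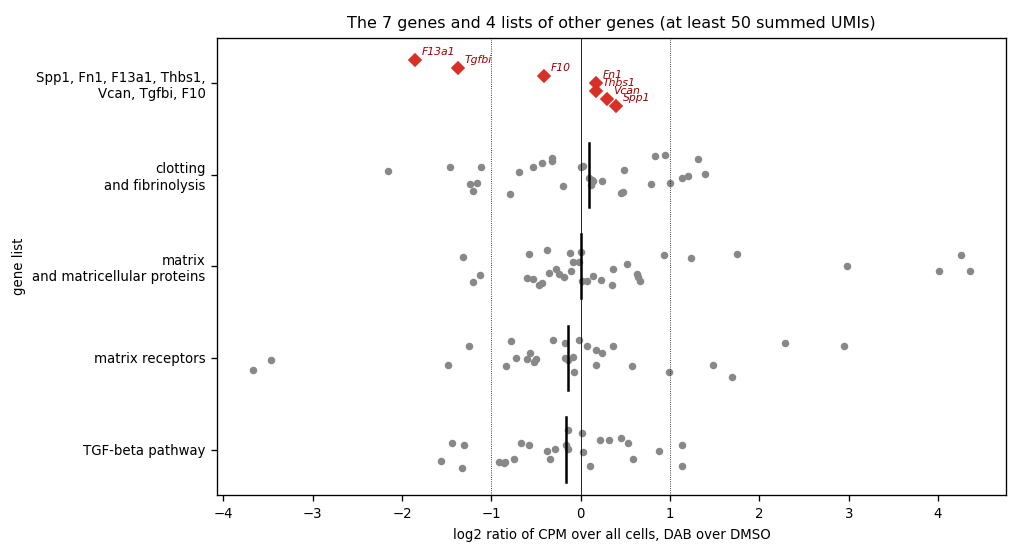
Log2 ratio of CPM over all cells, DAB over DMSO, for the 7 genes (red diamonds, named) and for the genes of 4 lists with at least 50 summed UMIs (grey points, spread vertically for legibility, with the list median as a black bar). Dotted lines mark 2-fold. F13a1 and Tgfbi lie beyond the lower line, and the 4 list medians lie between -0.17 and 0.09.

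Genes with the most similar pattern were sought over the 24 clusters with at least 50 DMSO cells, by Pearson's r of log2 CPM in that library among 5882 genes. These correlations describe clusters of 1 library that share depth and free RNA. Spp1 was most like Mtpn (0.89), Lrpap1 (0.86) and Ccl9 (0.83), and Fn1 was close to Pid1 (0.91) and Msr1 (0.88). F13a1 was most like Tfec (0.90), Cdc42bpa (0.88) and Osbp (0.86), and Tgfbi most like Sirpb1c (0.89), Ctsc (0.87) and Arg1 (0.86). Thbs1 was most like Vsir (0.94), Pparg (0.93) and Tbc1d2 (0.92), and F10 most like Cd300lf (0.93), Sirpa (0.93) and Cebpb (0.93). Vcan had the lowest values, with Snx6 (0.82), Dip2c (0.78) and Tns4 (0.74). Among the 7 genes the highest r was 0.76 between Thbs1 and F10, followed by 0.73 between Fn1 and Tgfbi, and the lowest was 0.10 between Thbs1 and Fn1.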

How the data were processed

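The authors ran Cell Ranger 7.0.0 on mm10, and the deposited values are its raw UMI counts for each gene and barcode without normalization, with at least 500 UMIs per barcode. Seurat 4.3.0 and R 4.1.2 are named in the submitters' processing notes, and the authors' cell annotation was not used here. The DMSO file held 9855 barcodes and 106792967 UMIs, and the DAB file 11631 barcodes and 165506902 UMIs.

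Barcodes above 10% mitochondrial UMIs (55 DMSO, 89 DAB) or beyond 4 median absolute deviations (7 and 10) were left out. The highest scores against simulated doublets (768 and 1066) were removed at a rate proportional to the number of barcodes. Pearson residuals of 3000 variable genes, with cell cycle and mitochondrial scores regressed out, gave 40 components, aligned by mutual nearest neighbours and clustered with Leiden (resolution 0.9, seed 1). A cluster took the name of a class from 17 marker lists when at least 3 of the markers, and at least as many detected markers as not, had a log2 fold of at least 1 over the other clusters (10 CPM added), with at least 1 among its 10 leading genes. Among several candidates the one with most markers in the leading genes was taken. The naming rule was fixed only once the clusters were known. Of the lists, 10 named a cluster.

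The 7 genes, the 4 pathway lists and the markers were chosen with earlier results of these data known. Genes named beside the 7 followed a rule: per list, up to 3 highest and 3 lowest log2 ratios among genes with at least 200 summed UMIs, and per gene the 3 most similar by r, among genes reaching 50 CPM in a cluster. Of these, 1 gene is not reported here. Ratios need a UMI in both libraries. Over all cells or in a class, a gene counts as 2-fold only with at least 50 summed UMIs. The counts of the 7 genes by cluster had no such minimum. The interval script was tested on simulated counts. Python 3.11.15, numpy 2.4.6, scipy 1.17.1, pandas 2.3.3, scikit-learn 1.9.0, igraph 0.11.9, leidenalg 0.10.2 and matplotlib 3.10.9 were used. Alternatives covered filters, doublets, scaling, cell weights, alignment, resolution, clustering genes, thinning and limits.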

Additional observations from a re-analysis of the deposited data

Results flagged for a closer look

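Classes with at least 200 cells of both libraries were compared. Among these, Spp1, Fn1, F13a1 and Vcan had log2 ratios (DAB over DMSO) of at least 1 in opposite directions in different classes. The share of all genes that did so was not counted, so the 7 genes cannot be set against it. With 1 library per condition the difference between classes was not tested.

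Spp1 was lower in mature monocyte-like cells (-1.47) and higher in granulocyte progenitor-like (1.35), intermediate granulocyte-like (2.63) and mature PMN-like cells (2.01). Fn1 was lower in mature monocyte-like cells (-3.78) and higher in granulocyte progenitor-like (1.68) and intermediate granulocyte-like cells (3.26), but both of these rest on DMSO levels below that of B cell-like cells. F13a1 was lower in immature monocyte-like (-3.52), mature monocyte-like (-4.87), mature PMN-like (-2.12) and chemokine-high granulocyte-like cells (-3.05). It was higher in intermediate granulocyte-like cells (1.02), where it had 31 UMIs in DMSO and 57 in DAB. Its DMSO level there, 2.83 CPM, was close to the 2.44 CPM of B cell-like cells. Within that class the ratio of F13a1 was 2.72 in cluster I, 0.22 in G and -1.71 in U. Vcan was lower in mature monocyte-like cells (-3.37) and higher in chemokine-high granulocyte-like cells (1.13), from 11 and 111 UMIs.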

How the results depend on the processing

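The number of the 7 genes at least 2-fold lower over all cells was 2, and 1 with the mean over cells of per-cell CPM, where Tgfbi came to -0.87. Over all cells the log2 ratio of Spp1 (0.40) was 0.42 with scaling by the median of ratios, 0.79 with the mean over cells, 0.56 with the class-standardized cell mix and 0.41 without doublet removal. No gene changed direction over all cells in any of these alternatives, but sizes changed. With the mean over cells F10 went from -0.41 to -0.10 and Fn1 from 0.17 to 0.51. With a log2 limit of 0.5, 1 gene (Spp1) counted as higher in immature monocyte-like cells, against 0. In that class F13a1 ranged from -4.33 to -2.39 and Tgfbi from -2.45 to -1.04 over 10 alternatives. Spp1 ranged from 0.31 to 0.87, below the limit of 0.5 in some of them, and Vcan from 0.23 to 0.64. Fn1 (-0.27 to 0.37), Thbs1 (-0.50 to 0.26) and F10 (-0.35 to 0.15) lay on both sides of 0. The size of the class also depended on the clustering. It held 1462 DMSO and 1238 DAB cells with the 7 genes and pathway genes among the clustering genes, and 1675 and 45 without alignment. At Leiden resolution 0.5, and in a clustering from which 222 genes differing between DAB and DMSO were left out, no cluster took the immature monocyte name, so no value exists there. In mature monocyte-like cells F13a1 ranged from -5.10 to -0.60, Thbs1 from -3.99 to -0.62 and Spp1 from -1.63 to -0.37 over 8 clusterings. Leaving out barcodes found in both libraries was chosen after seeing the data. Among matrix genes 2 were at least 2-fold higher with a minimum of 200 UMIs, against 6, and among TGF-beta genes 0, against 2. The causes were not tested.

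No paired analysis was possible because each condition is 1 library. Leaving out replicates was therefore not run. Depth limits the shares of cells with a UMI, which were higher for all 7 genes in both libraries without thinning.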
